A study of Mus musculus with 24 samples.

Results

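Genes of the cell cycle and of DNA replication were followed in the lungs of newborn mice across diet, oxygen and age. The members are 42 genes listed by symbol, of 57010 genes in the count table, and 17 of them act in DNA replication and 25 in mitosis. All 42 matched a symbol in the authors' annotation sheet and all 42 were among the 23831 genes kept for testing, with between 112 and 19779 reads in a library. C3H/HeN mice went on a diet with 0.4 ppm sodium selenite (SeS) or with less than 0.01 ppm (SeD) when they were 3 weeks old, stayed on it throughout and were bred, and their pups were kept from birth in room air (RA, FiO2 0.21) or in hyperoxia (O2, FiO2 0.85). Lungs were taken at postnatal day 1 (PN1) or day 3 (PN3), so that diet, gas and age formed 8 groups of 3 libraries, named here as SeS RA PN1, SeD O2 PN3 and so on. All groups shared the strain, and each library held RNA of the lung with all its cell types. In such RNA, fewer cells of a type and less RNA per cell cannot be told apart. The sources used here do not say which pups were littermates, so the p-values measure only the spread between these libraries.

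A cell that is about to divide first copies its DNA. In G1, cyclin E genes (Ccne1, Ccne2) and the transcription factor gene E2f1 act at the entry into S phase. Cdc6 and Cdt1 load the helicase subunits Mcm2 to Mcm7 on origins, Cdc45 is part of the active helicase, and Pcna is the clamp that holds the polymerase on DNA. Rrm1, Rrm2, Tyms and Tk1 make deoxynucleotides. Genes of mitosis are switched on later, mainly by Foxm1 and Mybl2. Among them are the kinase Cdk1 with its cyclins (Ccna2, Ccnb1, Ccnb2) and its phosphatase Cdc25c, the kinases Plk1, Aurka and Aurkb, the spindle checkpoint genes Bub1 and Bub1b, and Cdc20 and Ube2c of the ubiquitin ligase that ends mitosis. Others build chromosomes, kinetochores and spindle (Top2a, Mki67, Cenpa, Cenpe, Cenpf, Birc5, Kif11, Kif20a, Kif23, Tpx2, Nusap1). In the newborn lung, dividing cells are found among alveolar, endothelial and mesenchymal cells while the airspaces are being partitioned.

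Library totals ran from 26 to 50.4 M counts (median 32.6 M). Marker genes of alveolar type 2 cells summed to between 8089 and 22547 CPM (read counts scaled to a common library size, in counts per M) and those of lung endothelium to between 1159 and 2881 CPM, and no marker of either list was at 0 in any library. The labels of SeS O2 PN1 replicate 2 conflict, since hyperoxia is in its title while its oxygen level reads 0.21. It was kept in O2 by its title, and the deposited group sheet also lists it as O2. SeD O2 PN3 replicate 1 stood apart in 8 liver marker genes, which summed to 70967 CPM, against 7789 and 4996 CPM in SeD O2 PN1 replicates 1 and 2 and 3.71 to 1895 CPM in the other libraries. In SeD RA PN1 replicates 1 and 2, 734 chemosensory receptor genes summed to 316 and 821 CPM, against 21.7 to 44.8 CPM in the other 10 RA libraries and 109 to 453 CPM in the O2 libraries. Ddx3y, which lies on the Y chromosome, reached 1 CPM in 11 of 24 libraries, in 1 or 2 of 3 libraries in 7 groups and in 0 of 3 in SeD O2 PN3.

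Promoters of both classes are shown first, because start sites of the classes carry different known motifs of the cell cycle. RefSeq windows (GRCm38.p6, from 250 bases before to 50 bases after each start) matched 34 of the 42 genes by symbol, in 35 windows. Not matched were Cdc25c, Ccna2, Ccne2, Tpx2, Foxm1, Mcm4, Kif20a and Aurkb. The letters TTTGAA (the cell cycle homology region, CHR), CCAAT (the box bound by NF-Y) and TTTCCCGC or TTTGGCGC (an E2F site) were searched on both strands, and no matches of different motifs overlapped. Below are 200 bases (170 before to 30 after the start) of 3 mitosis genes and then 3 replication genes, each 5′ to 3′ on the strand of its gene, with every match in capitals.
Cdc20 (chr4:118437314-118437513, minus strand): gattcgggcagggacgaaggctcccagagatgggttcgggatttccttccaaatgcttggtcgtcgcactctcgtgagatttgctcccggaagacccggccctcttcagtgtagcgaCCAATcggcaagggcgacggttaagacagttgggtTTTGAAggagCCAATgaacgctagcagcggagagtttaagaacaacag
Cdk1 (chr10:69352883-69353082, minus strand): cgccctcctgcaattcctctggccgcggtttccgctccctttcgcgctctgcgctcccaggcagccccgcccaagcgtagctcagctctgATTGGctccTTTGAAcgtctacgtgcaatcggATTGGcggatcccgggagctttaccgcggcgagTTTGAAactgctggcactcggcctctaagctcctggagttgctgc
Cenpf (chr1:189688057-189688256, minus strand): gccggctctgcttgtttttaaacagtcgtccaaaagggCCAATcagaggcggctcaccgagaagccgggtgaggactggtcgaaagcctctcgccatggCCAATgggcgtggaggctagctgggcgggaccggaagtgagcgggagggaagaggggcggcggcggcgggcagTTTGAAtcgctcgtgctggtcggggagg
Mcm5 (chr8:75109339-75109538, plus strand): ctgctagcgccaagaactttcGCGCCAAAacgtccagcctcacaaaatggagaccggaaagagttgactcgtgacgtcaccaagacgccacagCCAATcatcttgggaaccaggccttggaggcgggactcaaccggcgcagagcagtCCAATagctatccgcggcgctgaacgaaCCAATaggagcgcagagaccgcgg
Mcm6 (chr1:128359676-128359875, minus strand): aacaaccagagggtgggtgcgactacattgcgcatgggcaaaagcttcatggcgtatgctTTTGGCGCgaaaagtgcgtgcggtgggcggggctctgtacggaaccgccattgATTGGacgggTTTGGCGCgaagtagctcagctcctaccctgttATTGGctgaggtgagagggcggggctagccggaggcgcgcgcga
Cdc6 (chr11:98907981-98908180, plus strand): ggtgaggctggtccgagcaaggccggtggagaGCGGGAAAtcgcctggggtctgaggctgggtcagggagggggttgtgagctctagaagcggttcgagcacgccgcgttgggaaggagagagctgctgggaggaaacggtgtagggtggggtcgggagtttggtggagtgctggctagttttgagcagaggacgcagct

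Among the mitosis genes, 13 of 19 windows held the CHR letters (68.4%), against 2 of 16 windows of the replication genes (12.5%) and 17.9% of all 32851 windows. CCAAT was found in 84.2% of the mitosis windows, 62.5% of the replication windows and 37.4% of all windows. Both CHR and CCAAT were in 68.4% of the mitosis windows and 6.95% of all windows. The E2F letters were in 6 of 16 replication windows (37.5%), in 0 of 19 mitosis windows and in 1.56% of all windows. In the stretches printed above, Cdc20, Cdk1 and Cenpf each hold CHR and CCAAT matches, Mcm5 and Mcm6 hold E2F and CCAAT matches, and Cdc6 holds an E2F match. A match is a run of letters, and no binding was measured in these samples. Only the exact letters named above were searched. Other spellings of these sites were not counted, so 0 matches do not show that a class lacks such sites.

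**Figure D1:**
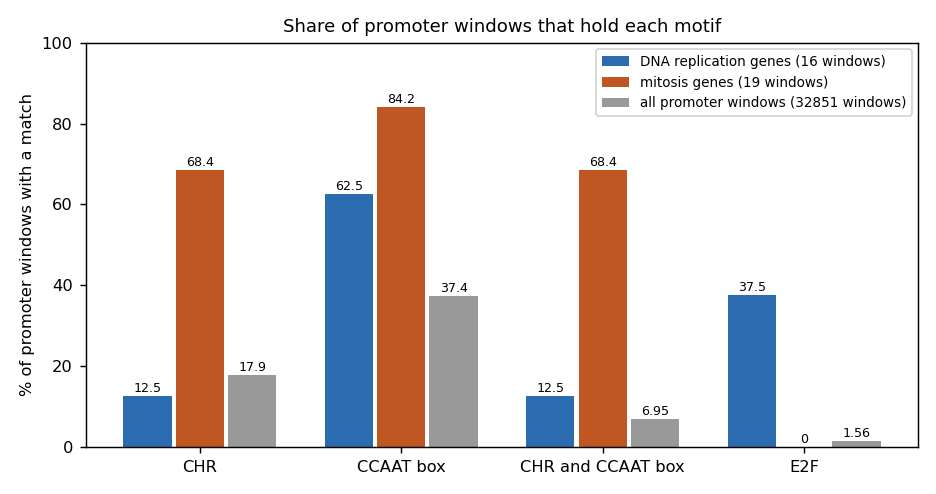
Percentage of RefSeq promoter windows of 300 bases with a match to each motif (bars), for 16 windows of replication genes, 19 windows of mitosis genes and all 32851 windows. CHR letters are in 68.4% of the mitosis windows and 12.5% of the replication windows, and the E2F letters in 0% and 37.5%. Other spellings of these sites were not searched.

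Levels per length differed by more than an order of magnitude between members. Levels were averaged over the 24 libraries and divided by the length of all annotated exons of the gene, overlaps counted once. Pcna was highest at 63.2 CPM per kb, followed by Mki67 (33.3 CPM per kb), Top2a (28.9), Ccna2 (24.6) and Mcm6 (20.8). The lowest were Cdc25c (1.13 CPM per kb), Mybl2 (1.97), Cenpa (2.21), Cdc6 (3.02) and Ccne1 (3.13). The place of Cenpa depends on that length, which was 13355 bases at a mean of 29.4 CPM, beside 2221 bases and 32.1 CPM for Ccnb2. Between the highest and the lowest group mean, Ccne1 spanned 2.87-fold and Rrm2 2.46-fold, while Mcm3 spanned 1.37-fold. With SeD O2 PN3 replicate 1 left out, the span was 1.53-fold for Ccne1, 1.96-fold for Rrm2 and 1.33-fold for Mcm3, and the widest was that of Cenpf (2.12-fold). On GRCm39, whose positions cannot be set against the promoter build, Foxm1 lies on chromosome 6, 128339518-128353147, plus strand. Plk1 lies on chromosome 7, 121758646-121769108, plus strand. Ccnb1 lies on chromosome 13, 100915153-100923116, minus strand. Ccne1 lies on chromosome 7, 37797404-37808264, minus strand.

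The classes did not follow one order across the groups. Mean log2 CPM over the 25 mitosis genes was 4.88 ± 0.39 (SD, n = 3) in SeS RA PN1 and 4.97 ± 0.35 in SeD RA PN1, and 5.77 ± 0.24 and 5.8 ± 0.31 in SeS and SeD RA PN3. In O2 the mitosis mean was 5.1 ± 0.25 (SeS PN1), 5.25 ± 0.13 (SeD PN1), 5.29 ± 0.17 (SeS PN3) and 5.55 ± 0.48 (SeD PN3), each with n = 3. The RA groups thus held both the lowest and the highest mitosis means. Over the 17 replication genes the means were 5.22 ± 0.21 (SeS RA PN1), 5.2 ± 0.16 (SeD RA PN1), 5.62 ± 0.20 (SeS RA PN3) and 5.71 ± 0.12 (SeD RA PN3). In O2 they were 5.5 ± 0.25 (SeS PN1), 5.64 ± 0.07 (SeD PN1), 5.41 ± 0.15 (SeS PN3) and 5.84 ± 0.53 (SeD PN3). By group mean, 18 of 25 mitosis genes were highest in SeD RA PN3 and 15 of 17 replication genes were highest in SeD O2 PN3, whose replicate 1 is described below. Without that replicate, only Tyms of the replication genes was highest in SeD O2 PN3. The others were then highest in an RA PN3 group or in SeD O2 PN1. The lowest group mean was in SeS RA PN1 for 23 members, in SeD RA PN1 for 15 and in SeS O2 PN3 for 4. The difference of the class means, mitosis minus replication, was below 0 in all 12 O2 libraries (-0.46 to -0.02 on the log2 scale). It was above 0 in 5 of 6 RA PN3 libraries (0.11 to 0.22), with SeD RA PN3 replicate 1 at -0.12. In RA at PN1 it was below 0 in 5 of 6 libraries (-0.58 to -0.08) and at 0.03 in SeD RA PN1 replicate 2.

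**Figure D2:**
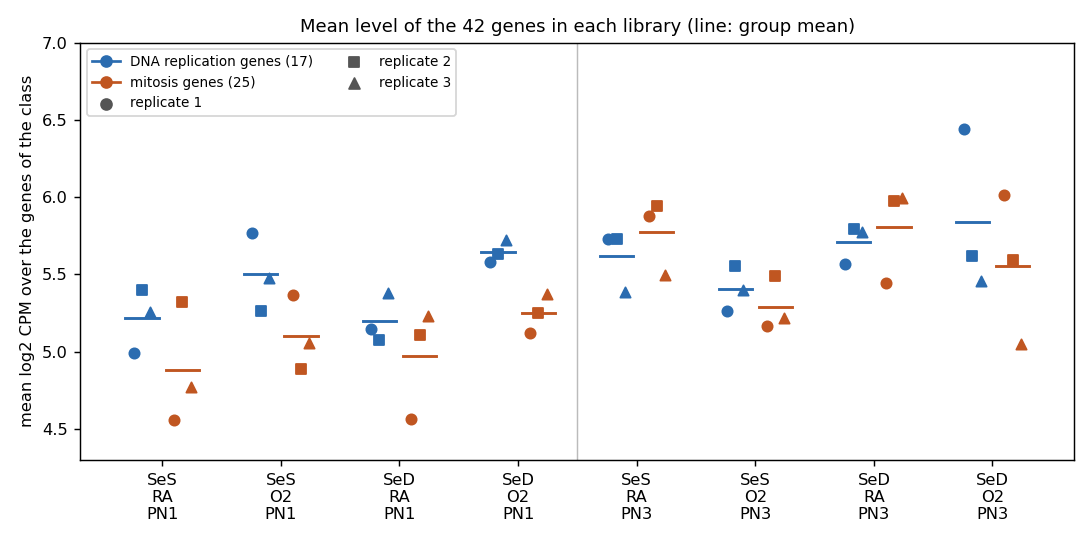
Mean log2 CPM over the 17 DNA replication genes (blue) and the 25 mitosis genes (orange) in each of the 24 libraries, with marker shapes for replicates and lines for group means. In RA the mitosis means are about 4.9 to 5.0 at PN1 and 5.8 at PN3, and SeD O2 PN3 replicate 1 lies above the other libraries in both classes.

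**Figure D3:**
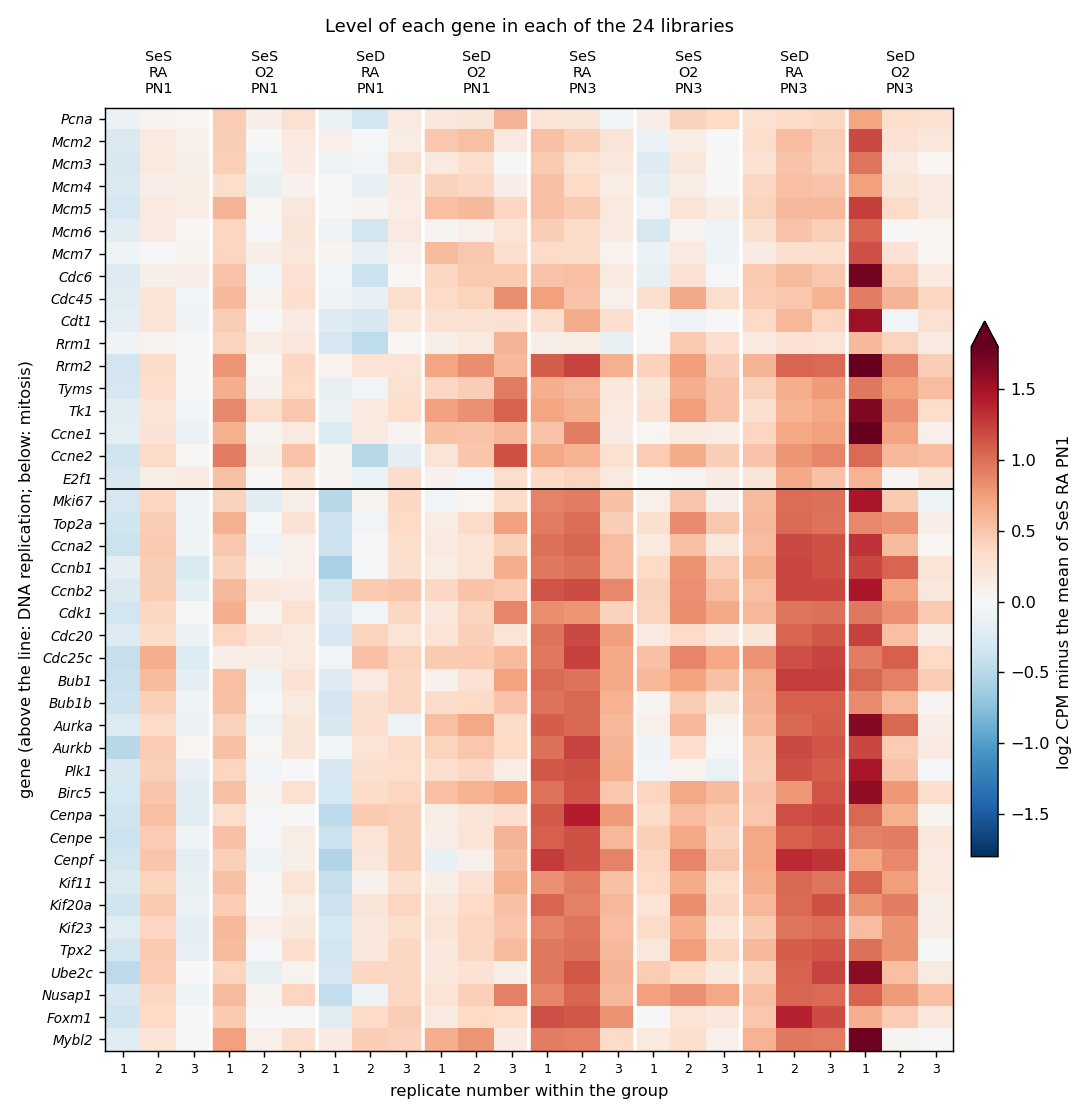
Level of each of the 42 genes (lines) in each of the 24 libraries (columns, grouped), as log2 CPM minus the gene's mean in SeS RA PN1, with replication genes above the black line and mitosis genes below it. Most mitosis genes are red in the RA PN3 columns, and SeD O2 PN3 replicate 1 is red in most replication genes.

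The first comparison asked how the members changed from PN1 to PN3 in room air on the SeS diet. All 42 log2 fold changes were positive, with a median of 0.78 (0.39 for replication and 0.85 for mitosis genes), against 0.02 over all genes tested. Of the 42 members, 31 were higher in all 3 PN3 libraries than in all 3 PN1 libraries, 23 of them mitosis genes, against 13.1% of all genes. In edgeR's quasi-likelihood test, however, only Foxm1 passed the threshold (a log2 fold change above 0.25 in size, with an adjusted p under 0.05), where 0.743% of all genes were called higher. By unadjusted p under 0.05, 30 members were higher, all 25 mitosis genes among them, and 0 lower, beside 8.43% and 4.83% of all genes. Foxm1, the transcription factor that drives mitosis genes, was at 14, 23 and 17.8 CPM in SeS RA PN1 and at 39.9, 39 and 31.5 CPM in SeS RA PN3. Every PN3 library was above every PN1 library, and Foxm1 rose by 1.01 on the log2 scale (SE 0.21, adjusted p = 0.0246). Cdc25c, the phosphatase that activates Cdk1, was at 3.36, 7.04 and 3.79 CPM at PN1 and at 8.61, 10.5 and 7.27 CPM at PN3, and missed the threshold (log2 fold change 0.89, SE 0.23, adjusted p = 0.0623). Cdc20, the activator of the ubiquitin ligase that ends mitosis, was at 15.4, 22.8 and 16.9 CPM and then at 35.7, 41.4 and 30.4 CPM (log2 fold change 0.96, SE 0.25, adjusted p = 0.0629). For both genes the PN3 libraries lay above the PN1 libraries, and replicate 2 was the highest library at each age. Among replication genes, the smallest p were those of Rrm2, Tyms and Cdc45. Rrm2, the regulated subunit of ribonucleotide reductase, was at 30.1, 47.9 and 38.5 CPM at PN1 and at 81.1, 88.3 and 59.5 CPM at PN3 (log2 fold change 0.97, SE 0.31, adjusted p = 0.139). Tyms, which makes thymidylate, was at 25, 38.2 and 31.1 and then at 48.5, 47.1 and 35.3 CPM (log2 fold change 0.47, SE 0.19, adjusted p = 0.252). Cdc45, a part of the replicative helicase, was at 13.3, 17.9 and 14.6 and then at 25.3, 21.6 and 16.1 CPM (log2 fold change 0.46, SE 0.19, adjusted p = 0.268). The groups did not overlap for Rrm2 and overlapped for Tyms and Cdc45.

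The number of members called from PN1 to PN3 in SeS RA depended on single libraries and on the test. It was 0 without SeS RA PN1 replicate 1 or 3 or without SeS RA PN3 replicate 1 or 2, 15 without SeS RA PN1 replicate 2, 5 without SeD RA PN1 replicate 1 and 2 without SeD RA PN3 replicate 1. Without SeD O2 PN3 replicate 1 or 3 it was 12 or 9, although these libraries enter only the scaling, the filter and the shared estimate of the spread. With SeS O2 PN1 replicate 2 moved to RA, as its oxygen label has it, 18 members were called, and with a term for Ddx3y reads 12. DESeq2 called 21 members and limma 30. Here and below, the share of all genes called in other tests or left-out fits is given only where printed beside the count. Such counts alone do not show a change particular to the members. Between PN1 and PN3 in SeS RA, alveolar type 2 markers (5 of 5 measured, none at 0) summed to 16800 to 17500 CPM and to 11400 to 13700 CPM, and fibroblast markers (5 of 5, none at 0) to 3820 to 4460 and to 4410 to 5300 CPM. Thymocyte markers (8 of 8, with Ptcra at 0 in 2 of 3 libraries at PN1) summed to 3.12 to 4.05 CPM at PN1 and to 34.9 to 364 CPM at PN3, with the highest sum in replicate 2. Neutrophil precursor markers summed to 64.1 to 106 CPM at PN1 and to 36.7 to 56.2 CPM at PN3, without overlap. Alveolar type 1 markers summed to 4410 to 4690 and to 3610 to 4140 CPM, also without overlap. The part of these markers in the change was not tested.

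On the SeD diet in room air, 24 of 42 members rose from PN1 to PN3 and 0 fell, 19 of 25 mitosis genes and 5 of 17 replication genes, while edgeR called 5.28% of all genes higher and 16.5% lower. All 42 log2 fold changes were positive (median 0.75, with 0.47 for replication, 0.83 for mitosis genes and 0.01 for all genes). With library totals the median of all genes moved to -0.10 and that of the members to 0.62. In 38 members the groups did not overlap, against 14.5% of all genes. Ccnb1, the cyclin that drives Cdk1 into mitosis, was at 16.3, 24 and 29.9 CPM in SeD RA PN1 and at 37.9, 56 and 53.7 CPM in SeD RA PN3, and rose by 1.07 on the log2 scale (SE 0.26, adjusted p = 0.00751). Nusap1, which binds spindle microtubules, was at 34, 43.5 and 59.4 CPM and then at 67.2, 94.9 and 93.4 CPM, and rose by 0.9 on the log2 scale (SE 0.22, adjusted p = 0.00772). Foxm1 was at 15.4, 22.8 and 24.4 CPM and then at 25.1, 46.7 and 40.4 CPM, and rose by 0.84 on the log2 scale (SE 0.21, adjusted p = 0.00888). All PN3 libraries were above all PN1 libraries for these genes, and replicate 1 was the lowest library of each group. Of the replication genes, Ccne2, a cyclin of the entry into S phase, was at 22, 15.1 and 18.8 CPM at PN1 and at 30.4, 37 and 39 CPM at PN3, and rose by 0.93 on the log2 scale (SE 0.23, adjusted p = 0.00872). Mcm4, a subunit of the helicase, was at 69.1, 64.1 and 79 CPM and then at 92.1, 103 and 101 CPM, and rose by 0.48 on the log2 scale (SE 0.15, adjusted p = 0.0291). Tyms was at 28.2, 30.1 and 37.6 CPM and then at 41.2, 48.9 and 52.6 CPM, and rose by 0.57 on the log2 scale (SE 0.19, adjusted p = 0.0332). The groups did not overlap for any of the 3. The other replication genes called were Rrm1 and Pcna, with log2 fold changes of 0.45 (adjusted p = 0.0341) and 0.42 (adjusted p = 0.0428). The mitosis genes that were not called were Ccnb2, Plk1, Birc5, Cenpa, Ube2c and Mybl2. Within the called genes, Cdc20 was the one whose groups overlapped.

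The 24 calls in SeD RA also rested on single libraries. Their number was 8 without SeD RA PN1 replicate 1, 1 without SeD RA PN1 replicate 2, 3 without SeD RA PN3 replicate 2 and 8 without SeD RA PN3 replicate 3. Without SeD RA PN1 replicates 1 and 2, the pair with the chemosensory receptor reads, it was 0, with a median log2 fold change of 0.52 against 1 remaining PN1 library, which is assumed to vary like the other groups. Without SeD O2 PN3 replicate 1 it was 35. DESeq2 called 22 members, 21 of them among the 24, and limma called 41. Neutrophil precursor markers (8 of 8, with Ms4a3 at 0 in 1 library at PN3) summed to between 90.6 and 140 CPM in SeD RA PN1 and to 43.9 to 53.1 CPM in SeD RA PN3, without overlap. Alveolar type 2 markers summed to 14500 to 17300 and to 11500 to 15600 CPM, alveolar type 1 markers to 4250 to 5310 and to 3470 to 4310 CPM, and fibroblast markers to 4700 to 4900 and to 4570 to 5330 CPM. Their part in the change was not tested. The change from PN1 to PN3 was then compared between the diets in room air, a comparison added after the data were seen. In edgeR, 0 members and 0% of all genes were called, with 0 members called in DESeq2 and 1 in limma. At an unadjusted p under 0.05 in edgeR, 0 members were higher and 0 lower, beside 3.26% and 12.1% of all genes. The smallest p was that of Rrm1, whose increase on the log2 scale was 0.4 larger on the SeD diet (SE 0.21, adjusted p = 0.37). The median difference was 0.03 and 25 of 42 were positive, and the median turned to -0.03 with RLE size factors and to -0.10 with library totals, so no order of the diets was resolved.

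Other genes of the same pathways were counted beside the members. From PN1 to PN3 in SeD RA, 13 of 46 further replication genes were called higher in edgeR, with the smallest p for Hells, a chromatin remodeller, Gins3 of the helicase complex, Brip1, a repair helicase, and Orc1 of the origin recognition complex. Their log2 fold changes were Hells (0.72), Gins3 (0.72), Brip1 (0.72) and Orc1 (0.76). Of 70 further mitosis genes, 47 were called higher, led by Ect2 (0.87), Sgo2a (1.00), Plk4 (0.74) and Kif20b (0.96), which act in cytokinesis, sister chromatid cohesion, centriole duplication and again cytokinesis. Of 24 G1 cyclins, kinases and E2F regulators, 9 were called higher, led by E2f6 (0.53), Rbl1 (0.58), E2f3 (0.63) and Cdk6 (0.36). Of 17 inhibitors and checkpoint genes, 5 were called higher, led by Wee1 (0.48), Cdkn2c (0.83), Chek1 (0.75) and Atm (0.38). None of the 4 lists had a gene called lower, while edgeR called 16.5% of all genes lower and 5.28% higher. In SeS RA it called 0.743% of all genes higher, and 8.43% were higher at an unadjusted p under 0.05. In SeS RA the counts called higher were 0 of 46, 5 of 70, 0 of 24 and 1 of 17. Among them were the mitosis genes Spc24 (0.99), Sgo2a (0.84), Troap (1.1) and Aspm (0.98), and Cdkn2c (0.82), an inhibitor of the G1 kinases. At an unadjusted p under 0.05 in edgeR, the counts higher were 20, 65, 8 and 5 in SeS RA. In SeD RA they were 29, 63, 13 and 7, beside 11.8% of all genes. By that rule 1 mitosis gene was lower in SeS RA and 1 inhibitor or checkpoint gene in SeD RA. Without SeD RA PN1 replicates 1 and 2, 0 genes of the 4 lists were called in SeD RA. Leaving out SeD O2 PN3 replicate 1, the counts called higher were 22, 52, 10 and 6 in SeD RA and 5, 24, 2 and 1 in SeS RA, in the same order of lists.

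**Figure D4:**
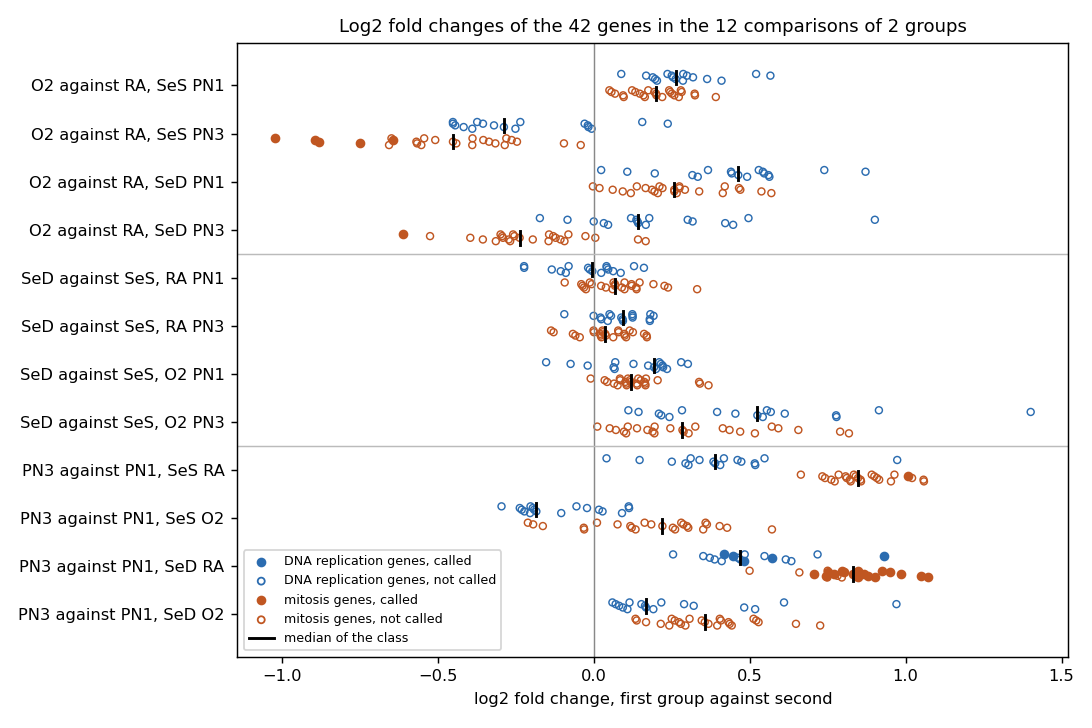
Log2 fold change (horizontal axis) of each of the 42 genes in the 12 comparisons of 2 groups, with filled points for genes called in edgeR, open points for the others and black lines for class medians. Points lie right of 0 for all 42 genes from PN1 to PN3 in RA on both diets, and the 5 filled points of O2 against RA in SeS PN3 lie left of 0.

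The members were then compared from PN1 to PN3 in hyperoxia. On the SeS diet the median log2 fold change was 0.08 (-0.18 for replication, 0.22 for mitosis, -0.01 for all genes), and edgeR, DESeq2 and limma called 0 members, while edgeR called 0.0797% of all genes higher and 0.105% lower. At an unadjusted p under 0.05 there was 1 higher member and 0 lower, beside 3.29% and 6.52% of all genes. It was Cdc25c, at 4.87, 4.84 and 5.05 CPM at PN1 and at 6.47, 8.24 and 7.21 CPM at PN3 (log2 fold change 0.57, SE 0.23, adjusted p = 0.404). Nusap1 followed, at 68.6, 47.6 and 60 and then at 76.9, 81.6 and 74.6 CPM (log2 fold change 0.4, SE 0.22, adjusted p = 0.583). Groups did not overlap in these genes. On the SeD diet all 42 log2 fold changes were positive (median 0.29, all genes 0.03), and edgeR, DESeq2 and limma called 0 members, with 0.336% of all genes called higher and 2.38% lower in edgeR. At an unadjusted p under 0.05 there were 3 higher members, beside 6.31% of all genes. Ccne1, the other cyclin E gene, was at 11.2, 11.2 and 11.7 CPM at PN1 and at 45.8, 12.9 and 8.27 CPM at PN3 (log2 fold change 0.97, SE 0.40, adjusted p = 0.21). Ube2c, the ubiquitin-conjugating enzyme of mitotic exit, was at 23.6, 24.8 and 22.4 and then at 63.8, 30.1 and 23.1 CPM (log2 fold change 0.73, SE 0.31, adjusted p = 0.235). No groups of a member stood apart on this diet, against 8.33% of all genes higher and 9.38% lower without overlap. The high value at PN3 was that of replicate 1 for both Ccne1 and Ube2c. Without that library the median was 0.02, and without SeD O2 PN3 replicate 3 edgeR called 4 members. Of the further pathway genes, Psrc1, a microtubule-binding gene, (1.39) and Cdkn1a (0.88, adjusted p = 0.0374) were called higher on the SeD diet, and on the SeS diet 0 were called in edgeR (6 of 70 mitosis genes and 4 of 17 inhibitors were higher at an unadjusted p under 0.05).

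The interaction of gas and age asked whether the change from PN1 to PN3 differed between O2 and RA. On the SeS diet all 42 estimates were negative (median -0.60, all genes -0.04), yet edgeR called 0 members and 0% of all genes lower. At an unadjusted p under 0.05, 10 members were lower in edgeR, beside 7.2% of all genes, and DESeq2 called 0 and limma 4. The smallest p were those of Foxm1 (difference -1.04, SE 0.30, adjusted p = 0.294) and Aurkb, a kinase of chromosome segregation (difference -1.1, SE 0.36, adjusted p = 0.338). On the SeD diet 41 of 42 estimates were negative (median -0.37, all genes -0.06). With RLE size factors the medians were -0.21 and 0.08, and 34 of 42 were negative. There edgeR called 0 members, beside 3.01% of all genes called lower, with 3 lower at an unadjusted p under 0.05 (10.5% of all genes), 0 called in DESeq2 and 34 in limma. Ccne2 (difference -0.87, SE 0.33, adjusted p = 0.0715) and Foxm1 (-0.67, SE 0.30, adjusted p = 0.131) had the smallest p. When SeD O2 PN3 replicate 1 was left out, edgeR called 7 members lower, namely Mybl2, Mcm7, Mcm5, Cdc6, Cdt1, Mcm6 and Mcm4, beside 1.68% of all genes. It called 1 when the library left out was replicate 1 of SeS O2 PN1, SeD O2 PN1 or SeD RA PN3, or replicate 1 or 3 of SeD RA PN1. Both interactions share their libraries with the comparisons of age and of gas.

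At PN1, members were compared between hyperoxia and room air. On the SeS diet all 42 log2 fold changes were positive with a median of 0.24 (0.26 for replication and 0.20 for mitosis genes), beside 0.05 for all genes. In edgeR 0 members were called, as were 0.0462% of all genes in this direction, and DESeq2 called 0 and limma 1. An unadjusted p under 0.05 was found for 2 higher members, against 13.4% of all genes. Tk1, thymidine kinase, was at 22.3, 29.8 and 24.6 CPM in SeS RA PN1 and at 46.3, 31.7 and 35.6 CPM in SeS O2 PN1 (log2 fold change 0.57, SE 0.25, adjusted p = 0.268). Ccne2 was at 16.6, 27 and 21.6 CPM in RA and at 40.2, 22.8 and 30.4 CPM in O2 (log2 fold change 0.52, SE 0.23, adjusted p = 0.273). The O2 libraries lay above the RA libraries for Tk1 and overlapped with them for Ccne2, and replicate 1 was the highest O2 library in both genes. In all, 4 members stood apart without overlap, all of them replication genes, against 19.7% of all genes. The median rested on single libraries. It was 0.09 with 34 positive members without SeS O2 PN1 replicate 1, 0.11 with 33 positive without SeS RA PN1 replicate 1 and 0.41 without SeS RA PN1 replicate 2. With SeS O2 PN1 replicate 2, the library whose labels conflict, moved to RA it was 0.33, and with that library left out 0.34.

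On the SeD diet at PN1, most of the members that stood apart between the gases were replication genes, all higher in O2. The median log2 fold change was 0.46 over the 17 replication genes and 0.26 over the 25 mitosis genes, against 0.01 for all genes, and 41 of 42 were positive (38 with RLE size factors and 34 with library totals). Library totals moved the median of all genes in this comparison to -0.14 and that of the members to 0.16, and the calls over all genes went from 334 higher and 262 lower to 173 and 1117 (423 and 828 with RLE). In 16 members the O2 libraries lay above the RA libraries, 13 of them replication genes, against 13.1% of all genes. No member passed the threshold in edgeR, which called 1.4% of all genes higher. At an unadjusted p under 0.05, 11 members were higher, 9 of them replication genes, and 0 lower, beside 13.3% and 7.3% of all genes, and DESeq2 called 2 members and limma 29. Ccne2 was at 22, 15.1 and 18.8 CPM in SeD RA PN1 and at 25, 30.1 and 47 CPM in SeD O2 PN1 (log2 fold change 0.87, SE 0.23, adjusted p = 0.051). Rrm1, the large subunit of ribonucleotide reductase, was at 128, 115 and 162 CPM in RA and at 170.02, 178 and 241 CPM in O2 (log2 fold change 0.54, SE 0.15, adjusted p = 0.0519). Both genes had no overlap, with replicate 3 as the highest O2 library. Leaving out 1 library moved the count of calls. It was 7 higher members without SeD O2 PN3 replicate 1 (Mcm7, Rrm1, Tk1, Cdc6, Ccne2, Pcna and Mcm5), where 7.9% of all genes were called higher. It was 3 without SeD O2 PN3 replicate 3, 2 without replicate 1 of SeS RA PN1 or replicate 2 of SeS O2 PN1, and 1 when the library left out was replicate 1 of SeS O2 PN1, SeD O2 PN1 or SeS O2 PN3, or replicate 3 of SeD RA PN1. The liver marker sums of 7789 and 4996 CPM in SeD O2 PN1 replicates 1 and 2 and the receptor reads of SeD RA PN1 replicates 1 and 2 stand on both sides of this comparison. Without the 3 libraries with the most Alb, the liver's albumin gene, 7 members were called higher, and without SeD RA PN1 replicates 1 and 2 the number was 0. Of the further pathway genes, Gins4 (0.37), Zwint (0.57) and E2f6 (0.41) were called higher on the SeD diet, a helicase, a kinetochore and a repressor gene, and on the SeS diet 0 were called in edgeR, with at most 2 genes a list higher at an unadjusted p under 0.05. On the SeD diet without SeD O2 PN3 replicate 1, the counts called higher were 12 of 46 replication, 4 of 70 mitosis, 2 of 24 G1 and E2F and 4 of 17 inhibitor genes.

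At PN3 on the SeS diet, 5 mitosis genes fell in O2 and 0 members rose. These 5 are 11.9% of the 42 members, and edgeR called 11.5% of all genes lower and 16.1% higher, so the share of members called was near the background. The median log2 fold change was -0.38 (-0.29 for replication and -0.45 for mitosis genes), against 0.04 for all genes, and 40 of 42 members had a negative value. In 17 members, 13 of them mitosis genes, all O2 libraries lay below all RA libraries, against 21.5% of all genes. Foxm1 was at 39.9, 39 and 31.5 CPM in SeS RA PN3 and at 17.8, 21.2 and 20.4 CPM in SeS O2 PN3, and fell by 0.89 on the log2 scale (SE 0.21, adjusted p = 0.00625). Aurkb was at 25.8, 30.3 and 19.9 CPM in RA and at 12.4, 16.1 and 12.7 CPM in O2, and fell by 0.88 on the log2 scale (SE 0.26, adjusted p = 0.0161). Plk1, a kinase needed at several steps of mitosis, was at 37.4, 38.1 and 26.7 CPM in RA and at 16.5, 17.9 and 15.9 CPM in O2, and fell by 1.02 on the log2 scale (SE 0.29, adjusted p = 0.0162). The O2 libraries of these genes were all lower and closer to each other than the RA libraries, of which replicate 3 was the lowest. Cdc20 was at 35.7, 41.4 and 30.4 CPM and at 20.2, 23 and 20.7 CPM, and fell by 0.75 on the log2 scale (SE 0.25, adjusted p = 0.0297). Bub1b, a gene of the spindle checkpoint, was at 59.3, 61.7 and 46.5 CPM and at 31.1, 41.1 and 34.8 CPM, and fell by 0.65 on the log2 scale (SE 0.23, adjusted p = 0.0391). Neither gene's groups overlapped.

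Of the replication genes, Mcm4, Mcm6 and Mcm2 had the smallest p in O2 against RA in SeS PN3, and none was called. Mcm4 was at 103, 91 and 77.9 CPM in RA and at 63.3, 78.3 and 70.9 CPM in O2 (log2 fold change -0.36, SE 0.15, adjusted p = 0.0906). Mcm6 was at 135, 127 and 111 CPM in RA and at 82.2, 104 and 93.7 CPM in O2 (log2 fold change -0.42, SE 0.20, adjusted p = 0.13). Mcm2 was at 87.1, 81.4 and 70.6 CPM in RA and at 56, 66.2 and 60.3 CPM in O2 (log2 fold change -0.39, SE 0.19, adjusted p = 0.134). All 3 encode helicase subunits, and the groups overlapped for Mcm4 only, by O2 replicate 2. The number of members called lower was 2 without SeS RA PN3 replicate 1 or 2, 2 without SeS O2 PN3 replicate 1, 3 without SeS O2 PN3 replicate 3 and 9 without SeD O2 PN3 replicate 1. Foxm1 was called lower in each of these fits. DESeq2 called 5 members lower, the same 5, and limma 15 lower and 1 higher. Beside these changes, alveolar type 2 markers summed to 11400 to 13700 CPM in RA and 16600 to 19000 CPM in O2, and thymocyte markers (Ptcra at 0 in 1 O2 library) to 34.9 to 364 and 6.10 to 37.3 CPM. Macrophage markers (5 of 5 measured, none at 0) summed to 251 to 314 CPM in RA and 438 to 502 CPM in O2, and neutrophil precursor markers (8 of 8, with Elane at 0 in 1 O2 library) to 36.7 to 56.2 and 70.2 to 111 CPM, both without overlap. The part of these markers in the result was not tested.

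**Figure D5:**
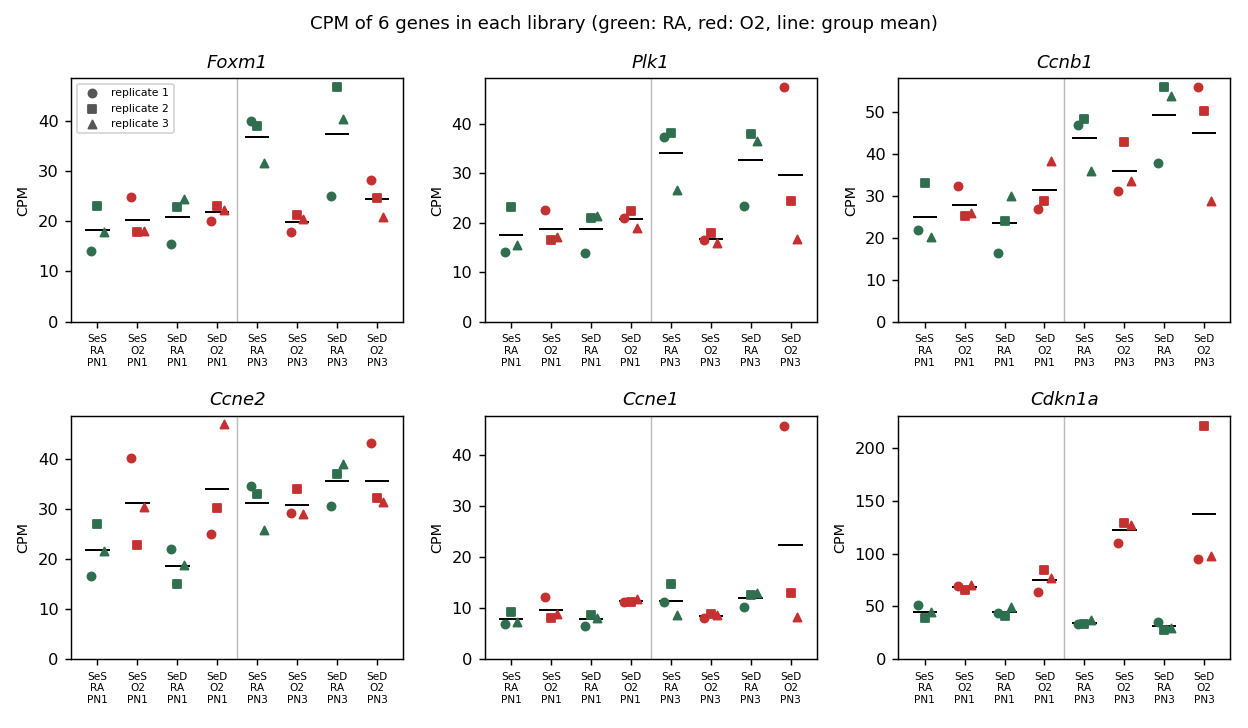
CPM of 6 genes (vertical axes, starting at 0) in each library of the 8 groups, with RA in green, O2 in red, marker shapes for replicates and lines for group means. Foxm1 in SeS PN3 is between 31.5 and 39.9 CPM in RA and between 17.8 and 21.2 CPM in O2, and Ccne1 reaches 45.8 CPM in SeD O2 PN3 replicate 1.

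On the SeD diet at PN3, 1 of 42 members fell in O2 and 0 rose, where edgeR called 12.2% of all genes lower and 23.7% higher. The medians of the classes had opposite signs, 0.14 for replication and -0.24 for mitosis genes, with -0.09 over the 42 and 0.05 over all genes. An unadjusted p under 0.05 was found for 1 higher and 1 lower member, beside 27.9% and 16.6% of all genes. No member's groups stood apart, against 25.7% of all genes higher and 17.6% lower without overlap. Foxm1 was at 25.1, 46.7 and 40.4 CPM in SeD RA PN3 and at 28.1, 24.5 and 20.7 CPM in SeD O2 PN3, and fell by 0.61 on the log2 scale (SE 0.21, adjusted p = 0.0283). Cenpf, a kinetochore gene, was at 98.8, 154 and 149 CPM in RA and at 99.8, 112 and 68.3 CPM in O2 (log2 fold change -0.52, SE 0.27, adjusted p = 0.142). Bub1b was at 45.7, 63.3 and 63 CPM in RA and at 54.4, 45.3 and 31.1 CPM in O2 (log2 fold change -0.4, SE 0.22, adjusted p = 0.183). In all 3 genes the lowest RA library, replicate 1, lay among the O2 libraries. The replication genes with the smallest p had positive values. Ccne1 was at 10.2, 12.6 and 13.1 CPM in RA and at 45.8, 12.9 and 8.27 CPM in O2 (log2 fold change 0.9, SE 0.40, adjusted p = 0.0843). Tk1 was at 31, 39.4 and 41.2 CPM in RA and at 80.9, 44.8 and 31.8 CPM in O2 (log2 fold change 0.5, SE 0.25, adjusted p = 0.13). Mcm7 was at 70.8, 79.2 and 79.2 CPM in RA and at 143, 76.7 and 65.7 CPM in O2 (log2 fold change 0.32, SE 0.18, adjusted p = 0.192). Replicate 1 held the high O2 value of each, while replicate 3 of O2 was near or below the lowest RA library. Foxm1 was no longer called without SeD RA PN3 replicate 2 or 3 or without SeD O2 PN3 replicate 3. It was not called either with RLE size factors, without the filter on low counts, in a fit of the compared groups alone, or with a term for Ddx3y reads, where its log2 fold change was -0.37. Ddx3y reached 1 CPM in 2 of 3 SeD RA PN3 libraries and in 0 of 3 SeD O2 PN3 libraries, and its part in the result was not tested beyond that fit. Without SeD O2 PN3 replicate 1 the median was -0.30, 4 of 42 were positive, and Mybl2, a transcription factor of mitosis genes, and Foxm1 were called lower. Without SeD O2 PN3 replicate 2 there were 1 higher and 1 lower calls, and without replicate 3 there were 5 higher and 0 lower calls. DESeq2 called 1 member higher and 1 lower, and limma 0 higher and 8 lower.

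The library SeD O2 PN3 replicate 1 stood apart from its group in the members too. It was the highest of the 24 libraries for 25 of 42 members, 14 of 17 replication genes and 11 of 25 mitosis genes. It lay above the mean of replicates 2 and 3 for all 42, by a median of 0.64 on the log2 scale (0.95 for replication and 0.59 for mitosis genes). The distance was smallest for Kif23 (0.09), a motor of cytokinesis, and largest for Ccne1 (2.15), which was 4.44-fold higher. It was 1.74 for Mybl2, 1.44 for Rrm2, 1.42 for Cdt1 and 1.41 for Cdc6. In this library the 8 liver markers, none at 0, summed to 71000 CPM, while the 2 others of the group were at 54.6 and 254 CPM. Its erythroid markers (7 of 8 measured, none at 0) summed to 1400 CPM, against 192 to 786 CPM elsewhere, and its neutrophil precursor markers (8 of 8, none at 0) to 620 CPM, against 36.7 to 252 CPM. Its alveolar type 2 markers summed to 8090 CPM, against 17200 and 22500 CPM in its group, and its fibroblast markers to 2110 CPM, against 4220 and 4710 CPM. The part of these cell types in the members' levels was not tested.

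Diet was compared within each gas and age. Library totals moved the all-gene median in RA at PN1 from -0.02 to 0.10, and that of the members from 0.04 to 0.16. In this comparison, where edgeR called 13.3% of all genes higher and 1.3% lower in SeD than in SeS, it called 0 of the 42 members and found 0 at an unadjusted p under 0.05 (18.8% of all genes were higher and 6.25% lower by that rule), with 0 in DESeq2 and 1 lower member in limma. The smallest p were those of Rrm1 (log2 fold change -0.22, SE 0.15, adjusted p = 0.401) and Cdc25c (log2 fold change 0.24, SE 0.23, adjusted p = 0.612). Rrm1 was at 150.3, 165 and 157 CPM in SeS and at 128, 115 and 162 CPM in SeD, and the groups overlapped. No difference in the members was detectable with these libraries in a comparison in which many other genes were called. Its SeD side holds replicates 1 and 2, whose chemosensory receptor reads summed to 316 and 821 CPM, against 25.8 to 32.9 CPM in SeS RA PN1. The part of such reads in the share of all genes called was not tested. In RA at PN3, edgeR, DESeq2 and limma called 0 members, 0 had an unadjusted p under 0.05 (all genes, 0.487% higher and 2.13% lower) and edgeR called 0% and 0.0126% of all genes higher and lower. The median was 0.06, with Pcna at 153, 151 and 125 CPM in SeS and at 156, 164 and 166 CPM in SeD (log2 fold change 0.18, SE 0.14). Rrm1 was at 169, 173 and 144 CPM in SeS and at 177, 189 and 185 CPM in SeD (log2 fold change 0.18, SE 0.15). These were the 2 members whose groups stood apart, against 4.71% of all genes.

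In O2 at PN1, edgeR called 0 members (0 at an unadjusted p under 0.05, beside 2.57% of all genes higher and 1.94% lower, and 0 in DESeq2 and in limma) and 0% of all genes higher and 0.0126% lower. The median log2 fold change of SeD against SeS was 0.14 and 38 of 42 were positive. Cdc25c was at 4.87, 4.84 and 5.05 CPM in SeS and at 6.23, 6.19 and 6.63 CPM in SeD (log2 fold change 0.37, SE 0.23). Mcm4 was at 88.7, 64.5 and 75.2 CPM in SeS and at 94.4, 92.5 and 77.4 CPM in SeD (log2 fold change 0.21, SE 0.15). Groups stood apart for Cdc25c and for Birc5, a gene of the chromosomal passenger complex, against 6.44% of all genes. In O2 at PN3 all 42 log2 fold changes were positive, with medians of 0.52 for replication and 0.28 for mitosis genes. There edgeR called 0 members and 0.0504% of all genes higher and 0.0923% lower, limma called 0 and DESeq2 9, and 14 members, 11 of them replication genes, were higher at an unadjusted p under 0.05 and 0 lower, against 9.23% and 6.64% of all genes. Cdc6, which loads the helicase, was at 11.8, 15.6 and 12.7 CPM in SeS and at 43.1, 17.9 and 14.7 CPM in SeD (log2 fold change 0.91, SE 0.26, adjusted p = 0.0847). Ccne1 was at 7.98, 8.76 and 8.58 CPM in SeS and at 45.8, 12.9 and 8.27 CPM in SeD (log2 fold change 1.4, SE 0.40, adjusted p = 0.0847). In both genes replicate 1 of SeD was far above the rest, replicate 2 was above the SeS range, and replicate 3 lay within it. Without SeD O2 PN3 replicate 1 the median over the 42 was 0.07 in place of 0.31, and 0 members had an unadjusted p under 0.05 or were called. Without replicate 2 or 3 of that group, in which replicate 1 weighs more, edgeR called 6 or 11 members higher.

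The interaction of diet and gas asked whether the difference between O2 and RA depended on the diet. At PN1 edgeR, DESeq2 and limma called 0 members and edgeR called 0% of all genes. At an unadjusted p under 0.05 in edgeR there were 0 members, beside 2.86% of all genes higher and 14.2% lower. The smallest p were those of Rrm1 (difference 0.29, SE 0.21, adjusted p = 0.531) and Ccne2 (difference 0.35, SE 0.33, adjusted p = 0.655). At PN3 again 0 members and 0% of all genes were called in edgeR and 0 members in DESeq2 and limma, with 5 higher members at an unadjusted p under 0.05, against 5.84% of all genes. These were led by Ccne1 (difference 1.35, SE 0.56, adjusted p = 0.561) and Cdc6 (difference 0.82, SE 0.37, adjusted p = 0.602), and for both genes SeD O2 PN3 replicate 1 was the highest of the 24 libraries, as it was for 25 members. The median interaction was 0.12 at PN1 and 0.29 at PN3, and that at PN1 turned to -0.02 with library totals. Leaving out 1 library gave medians from -0.12 (without SeS RA PN1 replicate 2) to 0.26 (without SeS O2 PN1 replicate 1) at PN1, and the median was also below 0 without SeD RA PN1 replicate 1 or SeS O2 PN1 replicate 2. At PN3 they ran from 0.008 (without SeD O2 PN3 replicate 1, with 23 of 42 positive and 0 at an unadjusted p under 0.05) to 0.49 (without SeD O2 PN3 replicate 3). These tests do not show that the diets responded alike.

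Genes that restrain or guide the cycle were read beside the members. Cdkn1a, which encodes the kinase inhibitor p21 and is a target of p53, was at 33.1, 32.8 and 37.3 CPM in SeS RA PN3 and at 110.3, 129 and 127 CPM in SeS O2 PN3, and rose by 1.83 on the log2 scale (SE 0.23, adjusted p = 0.00015). In SeD pups at PN3 it was at 35.3, 27.6 and 29.9 CPM in RA and at 95, 221 and 97.3 CPM in O2, and rose by 2.16 on the log2 scale (SE 0.23, adjusted p = 3.45e-05). The O2 libraries lay far above the RA libraries on both diets. At PN1 its log2 fold change was 0.61 (adjusted p = 0.155) on the SeS diet, from 51.1, 38.7 and 44.7 to 68.9, 65.5 and 70.6 CPM. In SeD pups it was 0.75 (adjusted p = 0.0709), from 43.4, 40.6 and 49.8 to 63.4, 84.6 and 76.8 CPM. The groups did not overlap at PN1 either, and neither value passed the threshold. Of the 17 inhibitors and checkpoint genes, 3 were called higher in O2 in SeS PN3, Cdkn1a, Ccng1 (1.29) and Mdm2 (0.46), all p53 targets, and Trp53 itself fell by 0.33 on the log2 scale. In SeD PN3, Cdkn1a, Ccng1 (1.3) and Mdm2 (0.49) were called higher and Cdkn2c (-0.53) lower. The 3 genes are 17.6% of the list on each diet, near the 16.1% of all genes called higher in SeS PN3 and below the 23.7% in SeD PN3.

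The further pathway genes were also counted in O2 against RA at PN3. On the SeS diet, of 46 replication genes, 6 were called lower and 0 higher in edgeR, led by Dnmt1 (-0.69), Timeless (-0.68), Chaf1a (-0.61) and Uhrf1 (-0.97), which copy DNA methylation, protect the replication fork, place histones and recruit Dnmt1. Of 70 mitosis genes, 8 were called lower and 2 higher. Incenp (-0.84), Espl1 (-0.98) and Troap (-0.87) were lower, the first a partner of Aurkb and the second the protease separase. Psrc1 (1.17) and Zwint (0.35) were higher. Of 24 G1 and E2F genes, 9 were called lower and 0 higher, led by Cdk6 (-0.47), E2f3 (-0.65), Ccnd3 (-0.41) and Rbl1 (-0.47). In SeD pups edgeR called 0 lower and 0 higher of 46 (1 lower at an unadjusted p under 0.05), 2 higher of 70 (Psrc1 (1.44) and Gtse1 (0.71)) and 2 lower of 24 (Cdk6 (-0.38) and Rbl2 (-0.3)). Against a background of 11.5% and 12.2% of all genes called lower, the lists stood at 13%, 11.4% and 37.5% on the SeS diet and at 0%, 0% and 8.33% on the SeD diet. These counts called lower without SeD O2 PN3 replicate 1 were 10, 11 and 11 on the SeS diet and 3, 3 and 3 on the SeD diet. The SeS and SeD comparisons share no library, and the difference between the diets was called for 0 of these genes in edgeR. At an unadjusted p under 0.05 it was higher for 4 of 46, 3 of 70, 3 of 24 and 0 of 17, beside 5.84% of all genes. In SeD against SeS, edgeR called 0 genes of the 4 lists in either gas at either age. At an unadjusted p under 0.05 there were 19 of 46, 8 of 70, 8 of 24 and 1 of 17 higher in O2 at PN3, beside 9.23% of all genes. SeD O2 PN3 replicate 1 enters this comparison.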

How the data were processed

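RNA from the 24 lungs used here was sequenced as stranded poly(A) libraries. The study's methods give a larger number of libraries, and the sources used here do not explain the difference. Per the labels and the study's methods, the authors used FastQC, trimmomatic, HISAT2 on GRCm39 and featureCounts, and deposited raw read counts for 57010 genes. The authors' DESeq2 fold changes, p-values and normalized values were not used. Whether counting used the strand is not given in the sources used here, so reads of overlapping antisense genes cannot be told apart.

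Counts were scaled by TMM, kept with filterByExpr (minimum count 10, minimum total 15; 23831 genes) and fitted as 8 group means in edgeR 4.0.16 (R 4.3.3; robust quasi-likelihood in the legacy form, common biological coefficient of variation 0.263). Genes were called at a Benjamini-Hochberg adjusted p under 0.05 over all genes tested and an absolute log2 fold change above 0.25, with a prior count of 0.125. The SE was the size of the log2 fold change over sqrt(F). CPM are TMM-scaled. Sums of marker, receptor and Ddx3y reads are per library total. There were 17 comparisons, 16 of them planned and the change with age between diets in RA added after seeing the data. Promoter windows came from RefSeq. The members and the lists were chosen with earlier results of these data known. All 42 members could be named. Every library is given for the 3 members of each class with the smallest p where a comparison had calls, and the 2 smallest p elsewhere. For other pathway lists up to 4 called genes are named, and Cdkn1a. Alternatives were RLE size factors, library totals, no filter, no fold threshold, the groups compared alone, a replicate block, left-out libraries, DESeq2 1.42.0, limma 3.58.1, edgeR 4 defaults and a Ddx3y term, the last 2 added after seeing the data. The fit was run on simulated counts, drawn independently for each gene, with known changes in SeD RA PN3. No simulated library was made to stand apart, so that run does not test calls that rest on single libraries.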

Additional observations from a re-analysis of the deposited data

Results flagged for a closer look

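No member's effect differed between groups at the threshold, and 5 other genes of the pathways did. In the interaction of gas and age on the SeD diet, which is the log2 fold change from PN1 to PN3 in O2 minus that in RA, the difference was -0.44 for Gins4 (edgeR, adjusted p = 0.0262), a helicase gene. It was -0.61 for E2f6 (adjusted p = 0.00656), a repressor of E2F targets, and -0.74 for E2f7 (adjusted p = 0.0274), another such repressor. It was -0.47 for Wee1 (adjusted p = 0.0269), the kinase that restrains Cdk1, and 1.41 for Cdkn1a (adjusted p = 0.00761). Each was listed because the test of the difference itself passed the threshold, where 14.9% of all genes were called higher and 3.01% lower. None of the 5 was called without SeD RA PN1 replicates 1 and 2, where the differences were -0.35 (Gins4), -0.66 (E2f6), -0.74 (E2f7), -0.38 (Wee1) and 1.56 (Cdkn1a), nor without the 3 libraries with the most Alb or in a fit of the compared groups alone. Gins4 without SeD O2 PN3 replicate 1 was not called (-0.41, adjusted p = 0.0533 in edgeR) and the other 4 were. With RLE size factors, with library totals, without the filter on low counts and in DESeq2, Gins4, E2f7 and Wee1 were not called, and E2f6 and Cdkn1a were. Leaving out any 1 library kept the calls of E2f6 and Cdkn1a. No group had the 4 or more samples that a search for outlying samples needs.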

How the results depend on the processing

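Depth was 26 to 50.4 M counts, and 3 libraries a group limit what can be called. Of 31 called member results, none turned its direction under any alternative, and limma, edgeR 4 defaults, no fold threshold and the moved library each kept 31, DESeq2 28, library totals 23, RLE size factors 20, no low-count filter 15 and the groups compared alone 7. The counts of members called moved as follows, and the cause was not tested. They are not set against the share of all genes called in the same fit.

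From PN1 to PN3 in SeD RA, 24 members became 12 without the filter, 4 in the groups compared alone, 37 without the 3 libraries with the most Alb and 41 in limma. In SeS RA, 1 became 0 without the filter, 18 with the conflicting library in RA, 9 without the 3 libraries with the most Alb, 12 with a Ddx3y term, 30 in limma and 21 in DESeq2. In SeS O2, 0 became 1 in the groups compared alone. In O2 against RA, SeS PN3, 5 became 3 with RLE size factors, 3 without the filter, 17 in the groups compared alone, 11 without the 3 libraries with the most Alb and 16 in limma. In SeD PN3, 1 became 0 with RLE, without the filter, in the groups compared alone and with a Ddx3y term, 2 without the 3 libraries with the most Alb, 8 in limma and 2 in DESeq2. In SeD PN1, 0 became 2 with RLE, 1 with the conflicting library in RA, 7 without the 3 libraries with the most Alb, 1 with edgeR 4 defaults, 29 in limma and 2 in DESeq2. In SeS PN1, 0 became 1 in limma. In SeD against SeS, 0 became 9 in DESeq2 in O2 PN3 and 1 in limma in RA PN1. Interactions with 0 calls became 1 for diet by age in RA, 34 for gas by age in SeD and 4 in SeS, all in limma, and 1 for gas by age in SeD with the conflicting library in RA.

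With 1 library left out at a time, the counts ran from 2 to 9 in O2 against RA, SeS PN3, from 0 to 7 in SeD PN1, from 0 to 5 in SeD PN3, from 0 to 11 in SeD against SeS, O2 PN3, from 0 to 15 in SeS RA with age, from 1 to 35 in SeD RA with age, from 0 to 4 in SeD O2 with age and from 0 to 7 in gas by age, SeD. The other 9 comparisons had 0 calls in every such fit. Without SeD RA PN1 replicates 1 and 2 together, SeD RA with age had 0.

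The replicate numbers did not pair the libraries. Over the 2000 most variable genes, libraries with the same number had a mean r of 0.0248 at PN1 (other numbers -0.0151) and of -0.0568 at PN3 (other numbers 0.0322). The closest library carried the same number for 6 of 12 libraries at PN1 and 2 of 12 at PN3. With a replicate block, 30 of the 31 results were kept, and SeS RA with age had 2 members called.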
